A study of Mus musculus with 9 samples.

Results

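The genes described here are 10 genes typical of slow-twitch skeletal muscle, Myh7, Myl2, Myl3, Tnnc1, Tnni1, Tnnt1, Csrp3, Myoz2, Ankrd2 and Tpm3, as measured by RNA sequencing in mouse brown adipose tissue (BAT). They were taken by gene symbol and are 10 of the 16937 genes with a row in any of the 3 deposited tables. They were chosen by their measured levels, which were lower in GCN2 KO Cold than in WT Cold. The values of that contrast, including the counts past a threshold, are therefore given as a description, and nothing is read from them. All 10 had a value in all 9 libraries, and no filter on low values removed any of them.

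The study asked what the kinase GCN2, a sensor of amino acid shortage that starts the integrated stress response, does in BAT during acute cold. There were 3 groups with 3 libraries each. WT RT was wild-type BAT from mice held at 23 °C, WT Cold was wild-type BAT after 8 h at 4 °C, and GCN2 KO Cold was BAT from whole-body Gcn2-/- mice after the same 8 h at 4 °C. All mice were adults of 12 to 23 wk on the C57Bl/6J background, housed alone for 5 days at 23 °C beforehand, and, per the study's methods, groups held both sexes. A GCN2 KO group at room temperature was not analysed here, so genotype and cold differ together between GCN2 KO Cold and WT RT. Within a group the libraries are named A, B and C, since the columns of the tables were not tied to single mice. The title of 1 sample of the knockout group also carries WT, and its genotype label, GCN2 KO, was followed.

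Libraries held 27058799 to 30768064 reads on the listed genes. Levels across all 9 libraries are given as CPM, the reads of a gene after each library is scaled to the same total. Eif2ak4, which encodes GCN2, had 11.1, 12.6 and 13.0 CPM in WT RT, 6.46, 8.31 and 8.34 CPM in WT Cold and 11.9, 12.7 and 11.8 CPM in the 3 libraries that carry the GCN2 KO Cold label. The knockout label thus did not go with a lower level, and since counts over a whole gene do not tell exons apart, they could not check the genotype. GCN2 KO Cold stands for the libraries so labelled throughout. Library C of both cold groups stood apart by the Y-linked gene Ddx3y, at 7.02 CPM in WT Cold and 10.5 CPM in GCN2 KO Cold against 84.8 to 144 CPM in the other 7 libraries. All 3 WT RT libraries were among those 7, so no WT RT library was low in Ddx3y as library C of the cold groups was, and counts without library C are given beside the results. Ucp1, the uncoupling protein that defines brown adipocytes, was present at 3592 to 9693 CPM in every library.

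Skeletal muscle fibres contract when myosin heads on the thick filament pull on the actin of the thin filament, and calcium binding to troponin allows it. Slow-twitch (type I) fibres build this machine from their own myosin, troponin and tropomyosin genes, contract slowly and resist fatigue, and heart muscle uses several of the same genes. BAT arises from a lineage related to that of skeletal muscle, can lie next to back muscles and makes heat without contraction. The genes below are ordered by where their products sit, in the thick filament, the thin filament, and the Z-disc where sarcomeres join.

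The sequences just before the start sites of 4 members are shown because these are the members that held an M-CAT, MEF2 or CArG motif, each read by transcription factors of muscle. Each run is the 250 bases before a start, taken from RefSeq on GRCm38.p6 and written 5′ to 3′ on the strand of the gene. Capitals mark CATTCC or its complement (the M-CAT box, read by TEAD factors), a MEF2 site or a CArG box (read by serum response factor). The windows are chr14:54994627-54994876 on the minus strand for Myh7, chr9:110763428-110763677 on the plus strand for Myl3, chr14:31208062-31208311 on the plus strand for Tnnc1 and chr3:123034988-123035237 on the minus strand for Myoz2.
Myh7: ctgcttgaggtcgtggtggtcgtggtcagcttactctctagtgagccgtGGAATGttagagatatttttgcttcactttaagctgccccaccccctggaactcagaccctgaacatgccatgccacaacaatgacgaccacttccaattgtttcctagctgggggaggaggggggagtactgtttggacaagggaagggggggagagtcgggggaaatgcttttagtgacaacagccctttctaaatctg
Myl3: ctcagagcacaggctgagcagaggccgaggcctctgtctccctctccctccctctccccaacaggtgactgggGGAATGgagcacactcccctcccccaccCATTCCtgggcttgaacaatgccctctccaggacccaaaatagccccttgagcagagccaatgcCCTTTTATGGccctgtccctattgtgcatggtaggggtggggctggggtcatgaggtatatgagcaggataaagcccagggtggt
Tnnc1: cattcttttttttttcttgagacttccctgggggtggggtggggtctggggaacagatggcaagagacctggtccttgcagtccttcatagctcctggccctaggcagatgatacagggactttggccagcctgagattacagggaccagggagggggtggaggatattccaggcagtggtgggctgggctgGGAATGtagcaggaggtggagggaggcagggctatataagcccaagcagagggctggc
Myoz2: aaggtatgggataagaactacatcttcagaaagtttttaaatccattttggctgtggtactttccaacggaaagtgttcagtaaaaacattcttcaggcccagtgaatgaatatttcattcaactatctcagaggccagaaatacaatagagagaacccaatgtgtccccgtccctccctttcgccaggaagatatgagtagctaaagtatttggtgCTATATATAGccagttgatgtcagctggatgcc

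Myh7 held 1 M-CAT box from 201 to 196 bases before its start. Myl3 held 2, from 177 to 172 and from 149 to 144 bases before, and a CArG box from 85 to 76 bases before. Tnnc1 held 1 M-CAT box from 58 to 53 bases before its start, and Myoz2 a MEF2 site from 33 to 24 bases before. All 10 members had RefSeq windows, 15 in all, and both strands were searched. The M-CAT box stood before 3 of the 10 members and before 14.4% of the 27025 genes with windows. TATAAA stood before 3 members (Myl2, Tnnt1 and Ankrd2) and before 14.3% of genes, and a MEF2 match can itself contain it. The RefSeq starts of Myl2, 122092724 and 122093189 on chromosome 5, lie well before its GENCODE M21 start of 122100951. The Myl2 windows therefore do not adjoin the gene as used for its length. A MEF2 site stood before 1 member and 3.42% of genes, and a CArG box before 1 member and 1.62% of genes. The E-box CANNTG, which MyoD-type factors read, stood before 10 of 10 members but also before 69.3% of genes. None of the capital stretches overlapped another searched motif. A match describes the letters and is not evidence of binding.

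The 3 thick filament genes had their highest levels in WT Cold and their lowest in GCN2 KO Cold, with WT RT between. Myh7, the slow (beta) myosin heavy chain, the motor of slow fibres and of the heart ventricle, had 44.6, 59.0 and 60.0 CPM in WT RT, 134, 96.9 and 78.5 CPM in WT Cold and 18.4, 10.3 and 4.03 CPM in GCN2 KO Cold, for libraries A, B and C in that order. Myl2, the regulatory light chain of slow and ventricular myosin, had 32.6, 40.7 and 37.8 CPM in WT RT, 95.0, 82.7 and 61.1 CPM in WT Cold and 18.3, 9.94 and 2.81 CPM in GCN2 KO Cold. Myl3, the matching essential light chain, had 17.9, 26.9 and 22.9 CPM in WT RT, 49.7, 49.2 and 28.3 CPM in WT Cold and 8.39, 5.94 and 1.85 CPM in GCN2 KO Cold. For all 3 genes the groups did not overlap, and library C was the lowest of each cold group. Myh7 (chromosome 14, 54970684 to 54994626 on GRCm38, minus strand) overlaps exons of 3 annotated antisense genes. On the opposite strand, Ccdc63 shares 60 exon bases with Myl2 and Pth1r shares 95 with Myl3. Whether the counting used strand is not given in the sources used here. Myh6, the fast heart myosin and near-identical neighbour of Myh7, had at most 0.799 CPM. Reads matching both genes equally would not have been counted, since only unique reads were.

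In WT Cold against WT RT, Myl2 was 2.25-fold higher, a log2 fold change of 1.17 ± 0.16 (SE, limma adjusted p = 0.00192). Myh7 had a log2 fold change of 0.98 ± 0.20 (limma adjusted p = 0.00908) and Myl3 of 0.97 ± 0.23 (limma adjusted p = 0.0184), so both passed the adjusted p but fell just under the log2 fold change threshold of 1. In GCN2 KO Cold against WT RT, the log2 fold changes were -2.36 ± 0.46 for Myh7 (limma adjusted p = 0.00551), -1.996 ± 0.56 for Myl2 (limma adjusted p = 0.0253) and -2.09 ± 0.48 for Myl3 (limma adjusted p = 0.0112). Between GCN2 KO Cold and WT Cold, where the genes were chosen, the levels stood 10.1-fold apart for Myh7, 8.98-fold for Myl2 and 8.31-fold for Myl3, higher in WT Cold. Adjusted p-values are from limma on log2(normalized count + 1) across all genes of a table, with Benjamini-Hochberg adjustment, and a gene is called where that value is below 0.05 and the fold change exceeds 1 in size on the log2 scale. A fold change on this scale slightly understates low genes.

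The thin filament genes split into the 3 slow troponins, which followed the myosin genes, and Tpm3, which did not. Tnnc1, the calcium-binding troponin C of slow and heart muscle, had 22.1, 29.6 and 27.8 CPM in WT RT, 61.7, 58.1 and 36.5 CPM in WT Cold and 10.6, 5.67 and 2.99 CPM in GCN2 KO Cold. Tnni1, the inhibitory subunit of slow fibres, had 24.4, 30.3 and 25.4 CPM in WT RT, 53.8, 45.3 and 34.6 CPM in WT Cold and 13.1, 7.16 and 5.69 CPM in GCN2 KO Cold. Tnnt1, the slow subunit that ties troponin to tropomyosin, had 34.8, 44.1 and 43.6 CPM in WT RT, 91.2, 76.2 and 53.7 CPM in WT Cold and 18.8, 8.83 and 3.47 CPM in GCN2 KO Cold. Every WT Cold library lay above every WT RT library and every GCN2 KO Cold library below both, for each of these 3 genes. Tpm3, which encodes a tropomyosin of slow fibres and also short tropomyosins of most other cells, had 153, 194 and 153 CPM in WT RT, 202, 185 and 147 CPM in WT Cold and 98.0, 87.8 and 75.0 CPM in GCN2 KO Cold. Its WT groups overlapped, and only GCN2 KO Cold stood apart, below both. RefSeq lists 2 Tpm3 starts 6870 bases apart, and the counts are summed over the gene, so the muscle form could not be separated from the others.

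Of these 4, Tnnc1 alone was called in WT Cold against WT RT, with a log2 fold change of 1.03 ± 0.20 (SE, limma adjusted p = 0.00807), or 0.95 and under the fold threshold with CPM in place of size factors. Tnni1, at 0.80 ± 0.15 (limma adjusted p = 0.00739), and Tnnt1, at 0.91 ± 0.18 (limma adjusted p = 0.00970), passed the adjusted p alone. Tpm3 passed neither, at 0.17 ± 0.12 (limma adjusted p = 0.341). Against WT RT, GCN2 KO Cold was lower by log2 fold changes of -2.01 ± 0.38 for Tnnc1 (limma adjusted p = 0.00513), -1.50 ± 0.27 for Tnni1 (limma adjusted p = 0.00378) and -2.08 ± 0.50 for Tnnt1 (limma adjusted p = 0.0136). Tpm3 was 1.67-fold lower there, at -0.74 ± 0.12 (limma adjusted p = 0.00246), under the fold threshold. In the contrast that chose them, GCN2 KO Cold against WT Cold, the levels stood 8.26-fold apart for Tnnc1, 4.96-fold for Tnni1, 7.93-fold for Tnnt1 and 1.88-fold for Tpm3, higher in WT Cold.

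The 3 Z-disc and stretch-response genes had the largest rises of the 10 in WT Cold over WT RT. Ankrd2, a stretch-responsive ankyrin repeat protein that shuttles between the sarcomere and the nucleus, had 11.8, 15.5 and 12.01 CPM in WT RT, 45.5, 35.0 and 25.3 CPM in WT Cold and 7.34, 6.88 and 1.44 CPM in GCN2 KO Cold. Myoz2 (calsarcin-1), which anchors calcineurin at the Z-disc of slow and heart muscle, had 9.75, 10.7 and 8.60 CPM in WT RT, 31.1, 25.4 and 17.3 CPM in WT Cold and 4.70, 4.03 and 1.03 CPM in GCN2 KO Cold. Csrp3, muscle LIM protein, had 15.7, 21.3 and 18.5 CPM in WT RT, 54.7, 39.9 and 39.1 CPM in WT Cold and 5.61, 10.9 and 2.88 CPM in GCN2 KO Cold. The groups did not overlap for any of the 3. Csrp3 was the one member whose highest GCN2 KO Cold library was B, not A.

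In WT Cold these genes were 2.79-fold (Ankrd2), 2.62-fold (Myoz2) and 2.54-fold (Csrp3) above WT RT. The log2 fold changes were 1.48 ± 0.20 for Ankrd2 (SE, limma adjusted p = 0.00197), 1.39 ± 0.19 for Myoz2 (limma adjusted p = 0.00221) and 1.35 ± 0.16 for Csrp3 (limma adjusted p = 0.00112). Set against WT RT, GCN2 KO Cold had values of -1.62 ± 0.49 for Myoz2 (limma adjusted p = 0.0351) and -1.50 ± 0.41 for Csrp3 (limma adjusted p = 0.0220). Ankrd2, at -1.42 ± 0.54, did not pass there (limma adjusted p = 0.0763), although its libraries did not overlap. In the contrast that chose them, the levels stood 7.49-fold apart for Ankrd2, 8.05-fold for Myoz2 and 7.20-fold for Csrp3, higher in WT Cold.

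**Figure D1:**
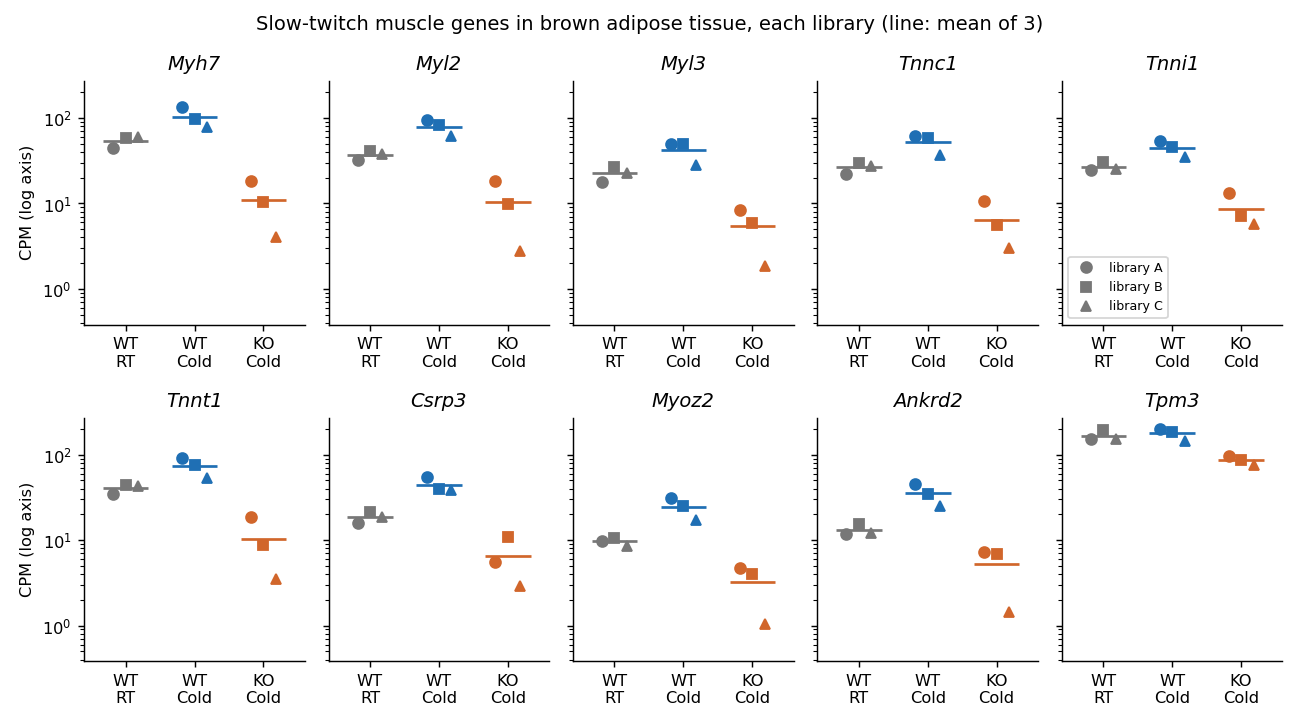
Level of each of the 10 slow-twitch genes in CPM (log axis) in every library of WT RT, WT Cold and GCN2 KO Cold (KO Cold), with lines at group means (n = 3). Except for Tpm3, all WT Cold libraries lie above all WT RT libraries, and the triangle of library C is the lowest of the KO Cold points in all 10 panels.

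Counted together, 10 of the 10 members had a log2 fold change above 0 in WT Cold against WT RT, with a median of 1.01 beside 0.00 over all genes tested. The 5 called higher were Ankrd2, Myoz2, Csrp3, Myl2 and Tnnc1, where 2.99% of all genes tested were called higher. At an adjusted p under 0.05 alone, 9 were higher, against 13.6% of all genes, and 9 did not overlap between the groups, against 22.8%. The WT Cold libraries took part in choosing the members, so these counts are not independent of that choice. In the column headers, the sample codes of WT RT begin with a different letter string from those of the cold libraries. What this string marks is not given in the sources used here, and anything it marks cannot be told apart from cold. The number called ran from 4 to 8 as single libraries were left out, with 8 without WT Cold library C, and was 1 when all 9 libraries were fitted together on CPM.

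For GCN2 KO Cold against WT RT, 10 of 10 members were lower in every library, against 25.5% of all genes. All but Ankrd2 and Tpm3, 8 in number, were called lower, against 7.58% of all genes (8 by edgeR and 7 by DESeq2, where Myl2 had an adjusted p of 0.0551), and the median log2 fold change was -1.81 beside 0.01 over all genes. The GCN2 KO Cold libraries also took part in choosing the members. The number called was 5 without WT RT library B or without WT RT library C, and 7 without GCN2 KO Cold library C. In whole tissue, fewer cells of a type and less RNA per cell cannot be told apart.

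For GCN2 KO Cold against WT Cold, the contrast behind the choice, the values are a description. All 10 were lower in every GCN2 KO Cold library than in any WT Cold library (10.7% of all genes were), with log2 fold changes from -3.34 for Myh7 to -0.91 for Tpm3 and a median of -3.00. The median was -2.37 without GCN2 KO Cold library C. The limma thresholds were passed by 4 members and 0.196% of all genes, by DESeq2 9 members and 1.12%, and by edgeR 1 member and 0.147%, and nothing is read from these counts, since this contrast chose the members. Without library C of both groups, an alternative added after the data were seen, the log2 fold changes ran from -2.92 for Myh7 to -0.93 for Tpm3.

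**Figure D2:**
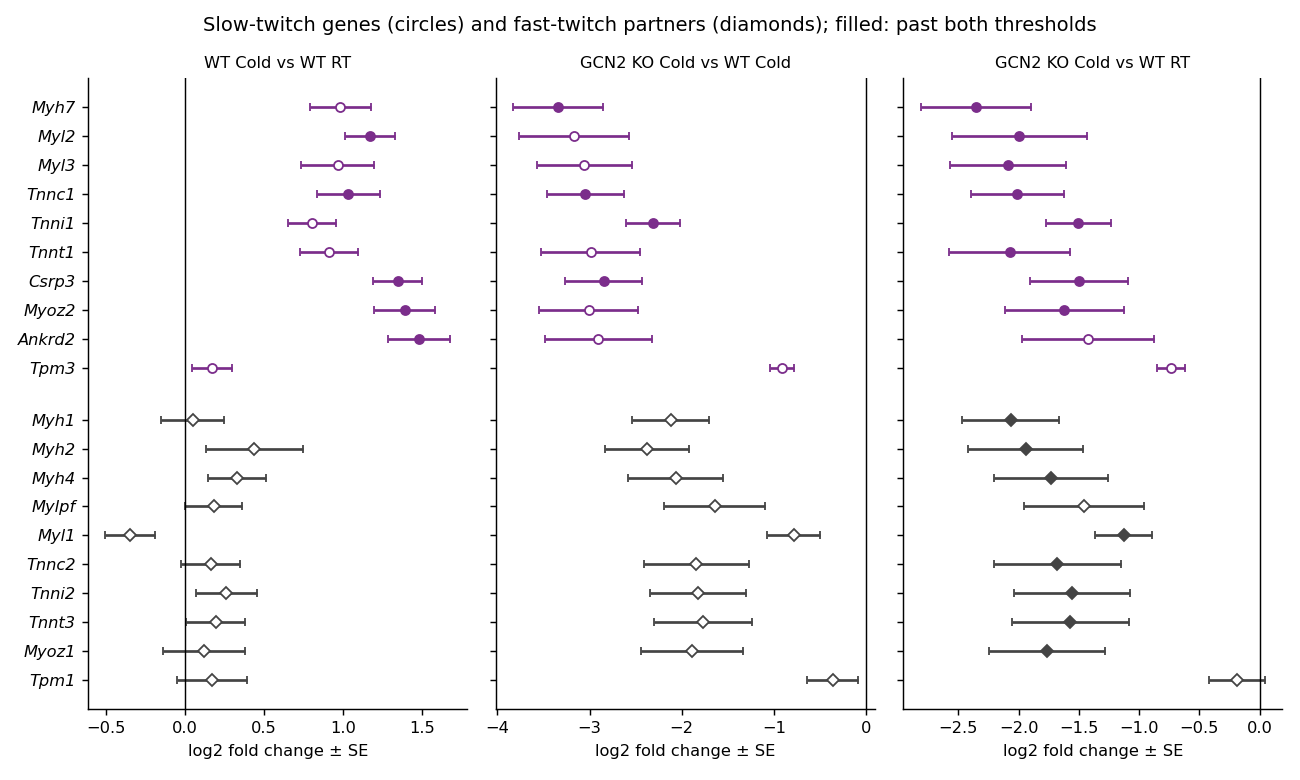
Log2 fold change ± SE of the 10 slow-twitch genes (circles) and of fast-twitch counterparts (diamonds) in the 3 comparisons, each panel with its own axis and filled symbols for genes past both thresholds. In WT Cold against WT RT, 9 slow-twitch genes lie between 0.80 and 1.48 while the fast-twitch counterparts lie between -0.35 and 0.44.

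The members varied together across single libraries. In WT Cold, library A was the highest and library C the lowest for 10 of 10 members. In GCN2 KO Cold, library A was the highest for 9 and library C the lowest for 10, and the highest stood a median of 4.54 times over the lowest, up to 6.52 times for Myl2. WT RT was tighter, with a median ratio of 1.29 between its highest and lowest library and library B the highest for 9 members. Library C of both cold groups was thus at once the lowest for these genes and the one low in Ddx3y, and the part of sex in the levels was not tested. Measured as the root-mean-square difference from the median of the other members over the 9 libraries, on centred log2(CPM + 1), Tnnc1 was the most typical at 0.15 and Tpm3 the least at 0.83.

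Compared per kilobase of exon, the order of the levels shifted little apart from Tpm3. In WT RT, the mean levels per kilobase were 27.4 CPM for Tpm3, 25.4 CPM for Tnnc1, 19.0 CPM for Myl2 and 18.5 CPM for Tnnt1, then 11.5 CPM for Ankrd2, 11.0 CPM for Myl3, 7.42 CPM for Tnni1, 6.92 CPM for Csrp3, 6.33 CPM for Myh7 and 2.83 CPM for Myoz2. Tpm3 and Tnnc1 traded places between WT RT libraries, as did Myl2 and Tnnt1, Ankrd2 and Myl3, and Csrp3 and Myh7. In WT Cold, Tnnc1 was first at 50.1 CPM per kilobase and Tpm3, at 29.2 CPM per kilobase, had moved to the fifth place behind Ankrd2. The first place in GCN2 KO Cold went to Tpm3 in every library, with a mean of 14.3 CPM per kilobase, followed by Tnnc1 at 6.15 CPM per kilobase. Myoz2 was the lowest in each group. Lengths are exon unions of GENCODE M21, a release on an older build than the one the submitters name.

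Of the slow genes, 8 were next set against a fast-twitch counterpart within the same library, a ratio in which library size cancels. The counterpart of Tpm3 was Tpm1, which is not among the 14 fast-twitch genes described below and did not follow them. Tpm1 changed by -0.36 in GCN2 KO Cold against WT Cold and -0.19 against WT RT, with overlapping libraries. The medians of the fast-twitch genes were -1.85 and -1.69. Within WT RT, the log2 ratio of Myh7 to the summed fast myosin genes Myh1, Myh2 and Myh4 was -3.86, -3.17 and -3.13. It was -2.65, -2.77 and -2.67 in WT Cold and -3.66, -4.30 and -3.84 in GCN2 KO Cold. The share of slow myosin was therefore highest in the 3 WT Cold libraries, while WT RT and GCN2 KO Cold overlapped. The same held for Myl2 to Mylpf, at -2.28, -1.88 and -1.82 in WT RT, -1.03, -1.13 and -0.87 in WT Cold and -2.24, -2.73 and -2.64 in GCN2 KO Cold. For Myl3 to Myl1 the ratios were -3.55, -3.01 and -3.10 in WT RT, -1.82, -1.89 and -2.01 in WT Cold and -3.76, -3.96 and -4.84 in GCN2 KO Cold, without overlap between any of the groups.

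In WT Cold against WT RT, 7 of the 8 slow to fast ratios were higher in every library, with a median difference of 0.80 on the log2 scale. The differences were 1.31 for Myl3 to Myl1, 1.27 for Myoz2 to Myoz1, 0.99 for Myl2 to Mylpf, 0.87 for Tnnc1 to Tnnc2, 0.72 for Tnnt1 to Tnnt3, 0.69 for Myh7 and 0.54 for Tnni1 to Tnni2. For each of these pairs, WT RT library A had the lowest WT RT ratio, and the difference is smaller without it. Each of those 7 had p = 0.1 in a two-sided exact permutation test, the smallest that 3 against 3 libraries allow, and p = 0.2 after adjustment over the 16 ratios tested. Libraries of both cold groups took part in choosing the slow genes, so these ratio tests are not independent of that choice. The ratio of Tpm3 to Tpm1 differed by -0.00 (exact permutation p = 1). Between GCN2 KO Cold and WT RT the median difference was -0.53, 1 ratio (Myl3 to Myl1, -0.97, exact permutation p = 0.1) was lower in every library and the other 7 overlapped. The Myl3 to Myl1 difference is smaller without GCN2 KO Cold library C, at -4.84 the lowest of its group. Against WT Cold, the contrast not tested, the ratios were lower in every GCN2 KO Cold library for 7 of 8 pairs, with a median difference of -1.22. The exception was Tnni1 to Tnni2, where GCN2 KO Cold library C, at -2.04, lay above all WT Cold libraries.

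Summed over the 9 members other than Tpm3, slow-twitch reads came to 8.52%, 12.7% and 12.6% of the summed reads of 14 fast-twitch genes in WT RT. They came to 19.9%, 18.1% and 20.4% in WT Cold and 9.09%, 7.85% and 9.63% in GCN2 KO Cold. WT Cold library C, the lowest of its group in CPM for each member, had the highest of these percentages. Divided by the same fast-twitch sum, 9 of 10 members had all WT Cold libraries above all WT RT libraries, where 5.91% of all genes were. GCN2 KO Cold and WT RT overlapped on this measure for 9 of 10 members, and only Myh7 was lower in every GCN2 KO Cold library (0.453% of all genes were). These counts, too, are not independent of the choice of the members.

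**Figure D3:**
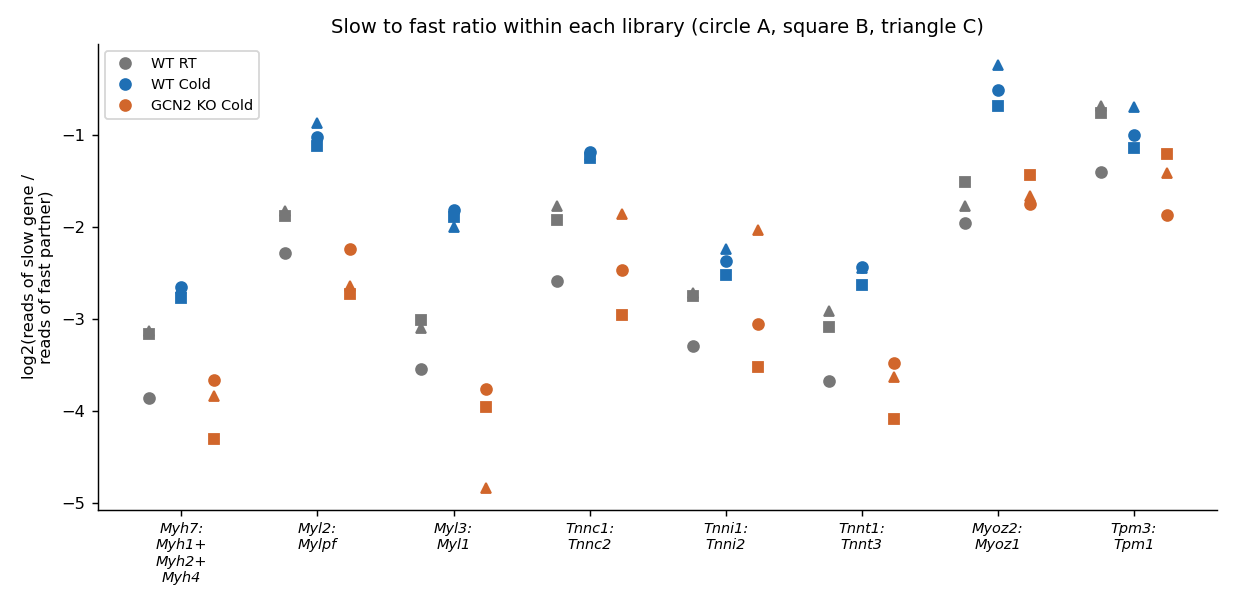
Log2 ratio of the reads of each slow gene to those of its fast counterpart in each library, for 8 pairs. The 3 WT Cold points of 7 pairs lie above all WT RT points, and WT RT and GCN2 KO Cold points overlap for 7 of 8 pairs.

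Fast-twitch genes were counted in the same way. Of 14 fast-twitch genes, 0 were called in WT Cold against WT RT by limma, DESeq2 or edgeR, 1 had an unadjusted limma p under 0.05, and the median log2 fold change was 0.17. That 1 gene was Atp2a1, the calcium pump of fast fibres, which was 1.72-fold higher, at 0.78 ± 0.18 (SE, limma adjusted p = 0.0147), and higher in every WT Cold library. Myl1, a fast-fibre myosin light chain named after its values were seen, was the 1 fast-twitch gene lower in every WT Cold library, at -0.35 ± 0.16. Their summed level was 2038 to 2506 CPM in WT RT, 1831 to 3102 CPM in WT Cold and 272 to 1158 CPM in GCN2 KO Cold. With GCN2 KO Cold set against WT RT, 12 of the 14 were called lower by limma (6 by DESeq2 and 7 by edgeR), where limma called 7.58% of all genes lower. The median of the 14 was -1.69, close to the -1.81 of the slow genes. Against WT Cold the median of the fast-twitch genes was -1.85 and that of the slow genes -3.00, with 0 fast-twitch genes called by limma, 2 by DESeq2 and 0 by edgeR, and 14 at an unadjusted limma p under 0.05.

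Genes that skeletal muscle expresses in any fibre type (Acta1, Ckm, Des, Tcap, Ttn, Neb, Ryr1 and Cacna1s) summed to 1368 to 1796 CPM in WT RT, 1382 to 2243 CPM in WT Cold and 395 to 995 CPM in GCN2 KO Cold. Of these 8, limma called 0 in WT Cold against WT RT (1 at an unadjusted p under 0.05, and 0 by DESeq2 or edgeR), with a median log2 fold change of 0.27, and called 7 lower in GCN2 KO Cold against WT RT (5 by DESeq2 and 5 by edgeR). Limma called 7.58% of all genes lower in the latter comparison. All but Des were lower in every GCN2 KO Cold library than in WT RT (25.5% of all genes were), along with the slow-twitch genes. How far the amount of muscle in the dissected fat sets the members' levels was not tested.

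The other muscle types were followed by their own markers. Of 10 heart genes, 5 (Myl7, Tnni3, Nppa, Nppb and Mybpc3) were not analysed here, and the other 5 summed to 16.3 to 28.8 CPM in WT RT, 21.3 to 30.1 CPM in WT Cold and 17.9 to 29.3 CPM in GCN2 KO Cold. Myh6 and Myl4, 2 of those 5, were called higher in WT Cold against WT RT, where 2.99% of all genes were. Their log2 fold changes were 1.54 ± 0.43 (SE, limma adjusted p = 0.0332) and 1.05 ± 0.17 (limma adjusted p = 0.0038). Myh6 rested on few reads, 6, 5 and 12 in WT RT and 23, 23 and 16 in WT Cold. Tnnt2 (0.17), Actc1 (0.59) and Ryr2 (-0.58) were not called. The 5 smooth muscle genes summed to 233 to 820 CPM in WT RT, 498 to 858 CPM in WT Cold and 498 to 1047 CPM in GCN2 KO Cold, and limma called 0 of them in each comparison (at an unadjusted p under 0.05, 0 in WT Cold against WT RT, 0 between the cold groups and 1 in GCN2 KO Cold against WT RT, and 0 called by DESeq2 or edgeR). Of the 5 genes of muscle precursors, Pax7 and Myf5 were not analysed here, and the summed level of the rest was at most 4.63 CPM in any library. The 9 brown adipocyte genes summed to 18156 to 20110 CPM in WT RT, 23699 to 25290 CPM in WT Cold and 27553 to 28467 CPM in GCN2 KO Cold. Against WT RT, 3 of the 9 had a log2 fold change below 0 in GCN2 KO Cold, 2 were called higher and 0 lower. Their median log2 fold change was 0.06. On log2(CPM + 1), without size factors, the list median was -0.10 to -0.05 relative to the WT RT mean in the 3 GCN2 KO Cold libraries. Elovl3, at 1.17 ± 0.28 (SE, limma adjusted p = 0.0184), and Ucp1, at 1.02 ± 0.16 (limma adjusted p = 0.00344), were called higher in WT Cold against WT RT, where 2.99% of all genes were.

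**Figure D4:**
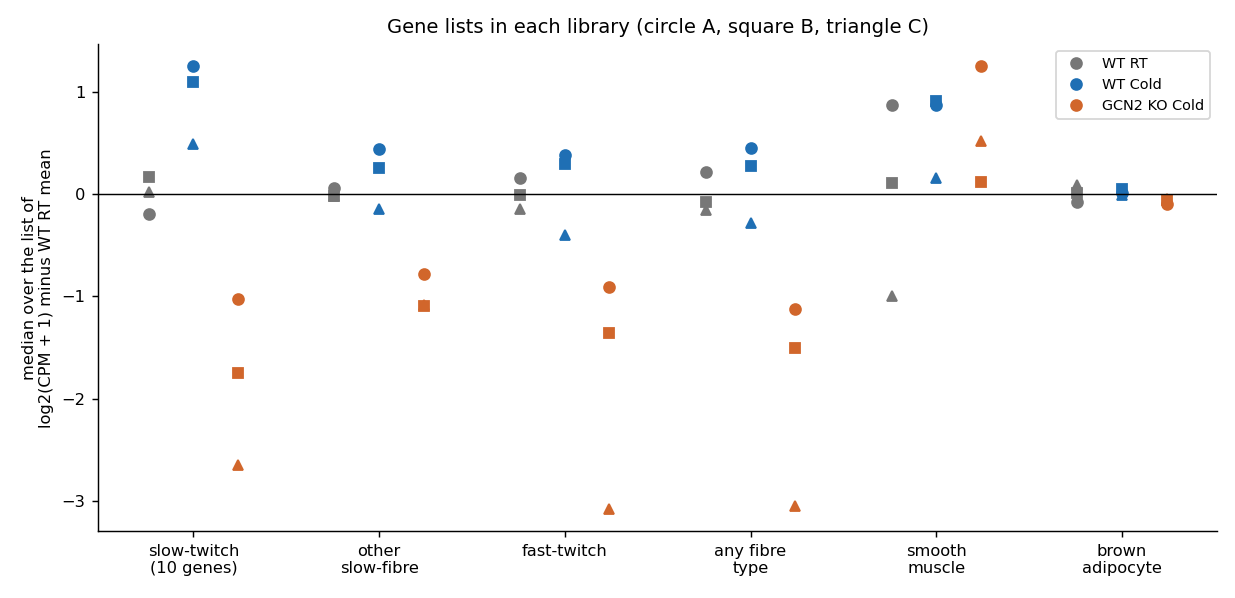
Median over each gene list of log2(CPM + 1) minus the mean of WT RT, for every library. The slow-twitch list reaches 0.49 to 1.25 in WT Cold, where the fast-twitch list spans -0.40 to 0.39, and both lists are below -0.90 in all GCN2 KO Cold libraries, while the brown adipocyte list stays between -0.10 and 0.09.

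A further 10 genes linked to slow fibres gave a mixed picture. In WT Cold against WT RT, 1 of the 10 was called higher, where 2.99% of all genes were. It was Actn2, the actin crosslinker of the Z-disc, at 1.09 ± 0.17 (SE, limma adjusted p = 0.00352), and the list median was 0.30. The second largest change was that of Sln (sarcolipin, which uncouples the muscle calcium pump), at 0.96 ± 0.32 (limma adjusted p = 0.0589). Of the same 10 genes in GCN2 KO Cold against WT RT, 5 were called lower, where 7.58% of all genes were. The largest falls were those of Mybpc1, slow myosin-binding protein C, at -2.02 ± 0.37 (limma adjusted p = 0.00446), and Sln at -2.0035 ± 0.44 (limma adjusted p = 0.00954). Atp2a2, the calcium pump of slow fibres and heart, named after its values were seen, was higher in every GCN2 KO Cold library than in WT RT, at 0.54 ± 0.08 (limma adjusted p = 0.00168), under the fold threshold. Sln had 3.64, 1.66 and 1.67 CPM in WT RT, 4.84, 3.65 and 3.61 CPM in WT Cold and 0.687, 0.487 and 0.259 CPM in GCN2 KO Cold, among the lowest levels of these genes. In the contrast that chose the members, Sln had a log2 fold change of -2.96 and Actn2 of -2.73.

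The gene whose pattern over the 9 libraries lay nearest to Myh7, among 14036 genes with a mean of at least 1 CPM, was Actn2, at a root-mean-square difference of 0.36 on centred log2(CPM + 1). Also among the nearest were Lmod2 at 0.47, Abra at 0.48 and Atp2a1 at 0.49. Among the nearest to the median of the 10 members were Actn2 at 0.17, Abra at 0.28, Myo18b at 0.28 and Lmod2 at 0.30. The points share the 9 libraries and 3 groups from which the members were chosen, so this likeness is a description.

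Among 19 genes known to control the slow-fibre programme, 4 were called higher in WT Cold against WT RT and 0 lower. Of all genes, 2.99% were called higher there, and the median log2 fold change of the 19 was 0.35. In GCN2 KO Cold against WT RT, 3 were called higher and 2 lower, with a median of -0.09, where 7.58% of all genes were called lower. Ppargc1a, the coactivator PGC-1alpha, which drives mitochondrial genes in BAT as well as slow-fibre genes in muscle, had 35.5, 43.6 and 57.5 CPM in WT RT, 398, 214 and 240 CPM in WT Cold and 226, 158 and 512 CPM in GCN2 KO Cold. Its log2 fold change was 2.70 ± 0.26 (SE, limma adjusted p = 0.00054) in WT Cold against WT RT and 2.77 ± 0.39 (limma adjusted p = 0.0014) in GCN2 KO Cold against WT RT. Esrrb, an oestrogen-related nuclear receptor, had 1.15, 1.53 and 2.86 CPM in WT RT, 11.99, 10.7 and 8.23 CPM in WT Cold and 5.71, 6.47 and 8.76 CPM in GCN2 KO Cold, and changed by 2.63 ± 0.34 (limma adjusted p = 0.00177) and 2.18 ± 0.35 (limma adjusted p = 0.00246) in the same comparisons. Both cold groups were therefore above WT RT for these 2 regulators.

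The other 2 called genes and the one that fell are named after their values were seen. Tead1, which encodes a TEAD factor that reads the M-CAT box shown above, had 41.3, 28.8 and 38.3 CPM in WT RT, 156, 144 and 214 CPM in WT Cold and 88.0, 98.0 and 80.9 CPM in GCN2 KO Cold. Its WT Cold mean was 5.01-fold above WT RT (log2 fold change 2.32 ± 0.20, SE, limma adjusted p = 0.000371). Its GCN2 KO Cold mean was 2.85-fold above WT RT (1.51 ± 0.15, limma adjusted p = 0.000354). Eya1, a transcriptional coactivator, changed by 1.24 ± 0.32 (limma adjusted p = 0.0252) in WT Cold against WT RT. Sox6, a repressor of slow-fibre genes in muscle, was 0.86 lower on the log2 scale, at -0.86 ± 0.16 (limma adjusted p = 0.00613), with 56.5, 44.8 and 47.8 CPM in WT RT, 25.1, 21.6 and 30.9 CPM in WT Cold and 19.4, 23.8 and 22.8 CPM in GCN2 KO Cold. It was lower in GCN2 KO Cold against WT RT as well, at -0.97 ± 0.12 (limma adjusted p = 0.000916). The 2 regulators called lower in GCN2 KO Cold against WT RT, also named after their values were seen, were Mef2c, which encodes a MEF2 factor, at -1.05 ± 0.13 (limma adjusted p = 0.000874), and Vgll2, a TEAD cofactor of skeletal muscle, at -1.79 ± 0.45 (limma adjusted p = 0.017).

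Between the 2 cold groups, limma called 0 of the 19 regulators (6 at an unadjusted p under 0.05, 1 called by DESeq2 and 0 by edgeR). The largest differences were those of Vgll2, at -2.73 ± 0.43 (SE, limma adjusted p = 0.0598), and of Eya1, at -1.41 ± 0.41 (limma adjusted p = 0.185). Vgll2 had 2.92, 2.34 and 1.64 CPM in WT RT, 4.94, 3.89 and 3.54 CPM in WT Cold and 0.940, 0.626 and 0.259 CPM in GCN2 KO Cold. Its 3 groups did not overlap.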

How the data were processed

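BAT was measured by RNA sequencing in 9 libraries, 3 each of WT RT, WT Cold and GCN2 KO Cold. Per the study's methods and the submitters' processing notes, poly(A) RNA was sequenced in pairs, reads were trimmed (Trimmomatic 0.36), aligned with STAR 2.5.2b (build named: GRCm39) and counted as unique exon reads per gene (featureCounts, Subread 1.5.2). The signal values deposited by the authors are those gene counts divided by a size factor per library, set within each of 3 tables of 6 libraries. The tables also hold the authors' own fold changes and p-values, which were not used. Every value came out as a whole multiple of what 1 read is worth (100% within 1e-06 reads), so reads and CPM were recovered.

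Each table was fitted on its own with limma 3.58.1 (trend), after adding a pseudocount of 1 and taking log2, and p-values were adjusted by Benjamini-Hochberg over all genes of the table (16679, 16312 and 16560). The study's thresholds were kept, an adjusted p under 0.05 and more than 1 on the log2 scale in either direction. The study itself used DESeq2 on counts, which with edgeR's quasi-likelihood test (DESeq2 1.42.0, edgeR 4.0.16) is an alternative here. The main fit differs from the count models because the deposited values are not counts. Other alternatives were a pseudocount of 0.5, a mean normalized count of at least 50, CPM, all 9 libraries in 1 fit and each library left out. Ratios of slow to fast genes used recovered reads and two-sided exact permutation tests. Gene lengths and positions are from GENCODE M21 and start sites from RefSeq, both on GRCm38, and were used for lengths, overlaps and sequence only. The members, the gene lists and the pairs were chosen with earlier results of these data known. All 10 members are named, as are, from each other list, the 2 genes with the largest change in a comparison and the 5 genes most like Myh7 or the members' median, except for an item not reported here. The labels call the samples biological replicates but do not tie columns to mice.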

Additional observations from a re-analysis of the deposited data

How the results depend on the processing

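In WT Cold against WT RT, 5 members were called, 1 when all 9 libraries were fitted together on CPM and 9 by the adjusted p alone, and 4 to 8 when single libraries were left out. In GCN2 KO Cold against WT Cold, given as a description, 4 passed, and this became 2 when genes averaging under 50 normalized counts were dropped, 10 with all 9 libraries in 1 fit on CPM, 9 with DESeq2, 1 with edgeR, 9 without library C of both groups (chosen after seeing the data) and 0 to 3 when single libraries were left out (0 without WT Cold library A, WT Cold library B or GCN2 KO Cold library C, and 1 without WT Cold library C or GCN2 KO Cold library B). In GCN2 KO Cold against WT RT, 8 were called and 5 to 9 when single libraries were left out, and the median log2 fold change of the members was -1.25 without GCN2 KO Cold library C. The cause of these shifts was not tested. No fold change of a member turned direction under any of these alternatives. CPM in place of size factors moved the median log2 fold change of all genes by -0.08, -0.12 and -0.20 in the 3 comparisons, with 4, 5 and 9 members past the thresholds on CPM, and Tnnc1 in WT Cold against WT RT fell under the fold threshold at 0.949. The log2 ratio of Tnni1 to Tnni2 in GCN2 KO Cold against WT RT, 0.05, was -0.365 without GCN2 KO Cold library C and -0.136 without WT RT library A, and that of Tpm3 to Tpm1 in WT Cold against WT RT, -0.00, was 0.129 without WT RT library C. The Tpm3 to Tpm1 difference moved the other way without WT RT library A, whose ratio was -1.40 against -0.76 in library B and -0.69 in library C. No paired analysis was possible because the columns of the tables carry no replicate numbers. Read depth was lowest for Myoz2, with 28 reads, and Ankrd2, with 39 reads, in GCN2 KO Cold library C.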

Other observations

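Lists of other cell types, read beside the slow-twitch genes, moved in their own ways. The 4 globin genes of red blood cells were called higher in both cold groups against WT RT (for WT Cold, 2.99% of all genes were). Their median log2 fold changes were 1.69 for WT Cold and 2.35 for GCN2 KO Cold. Their summed level ran from 557 to 2225 CPM in WT Cold and from 1068 to 2037 CPM in GCN2 KO Cold, against 253 to 334 CPM in WT RT. Of 5 leukocyte genes, 3 were called lower in each of the same comparisons, with medians of -1.54 and -1.87. For GCN2 KO Cold against WT RT, 7.58% of all genes were called lower. Of 4 endothelial genes, limma, DESeq2 and edgeR called 0 in any comparison, with 3, 1 and 2 at an unadjusted limma p under 0.05 in WT Cold against WT RT, GCN2 KO Cold against WT Cold and GCN2 KO Cold against WT RT. The 3 Schwann cell genes summed to 13.8 to 14.4 CPM in GCN2 KO Cold, 29.6 to 31.9 CPM in WT Cold and 16.0 to 29.3 CPM in WT RT. Their part in the levels of the slow-twitch genes was not tested.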
